A study of Mus musculus with 30 samples.

Results

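Ucn3, Prlr, Hadh and Car10 are genes of mature beta-cells that stayed far below the beta-cell level in alpha-cells made to express Pdx1. They were chosen by name, on levels in these same libraries: high in beta-cells, low in alpha-cells, and not near the beta-cell level in the Pdx1 groups. The 4 genes are rows of a table of 17775 genes, and all 4 passed the filter on low values (16633 genes did). Their differences between beta-cells, alpha-cells and the Pdx1 groups are therefore given as descriptions, without tests. Standard errors beside them describe the spread between libraries only. The difference between toxin-treated and untreated cells of a genotype was not itself a criterion, and it was tested. The levels in alpha and in both Pdx1 groups did enter the choice, so these tests are not fully independent of it, and choosing genes low in alpha favours a higher value in alpha DT.

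The study sequenced bulk RNA of hormone cells sorted by fluorescence from mouse pancreatic islets, in 30 libraries. Alpha-cells of 3-month-old Glucagon-Venus mice gave 8 libraries (alpha). Glucagon-Venus; RIP-DTR mice received diphtheria toxin at 2 months of age, and alpha-cells taken 30 days later gave 4 libraries (alpha DT). RIP-DTR puts the receptor for the toxin under the rat insulin promoter, so that the toxin kills beta-cells. Mice with the alleles Glucagon-rtTA and TetO-Cre, the reporter R26YFP and CAG-Pdx1, aged 3 months, gave 5 alpha-cell libraries (alpha Pdx1). With RIP-DTR added to these alleles and the toxin given on the same schedule, 6 more were made (alpha Pdx1 DT). In these mice the glucagon promoter restricts the transgene Pdx1, a homeodomain factor of beta-cells, to glucagon-expressing cells. Beta-cells of 3-month-old Insulin-mCherry mice gave 7 libraries (beta). RIP-DTR differs between the compared groups along with the toxin, and the reporter strain along with Pdx1, so these cannot be told apart. The comparisons ask how far glucagon-producing cells take on beta-cell expression when beta-cells are lost, when Pdx1 is supplied, and with both. The labels do not say that libraries came from separate animals, so p-values measure only the spread between these samples.

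A beta-cell matures after birth, when it gains the machinery that couples glucose to insulin release and loses genes of the immature state. Urocortin 3, the product of Ucn3, is a peptide released with insulin that acts on neighbouring delta-cells, which answer with somatostatin and so restrain insulin release. Prlr encodes the prolactin receptor, through which lactogenic hormones act on JAK2 and STAT5 and expand beta-cell mass in pregnancy. Hadh encodes the short-chain 3-hydroxyacyl-CoA dehydrogenase of mitochondrial fatty acid oxidation, which in beta-cells also binds and restrains glutamate dehydrogenase. Its loss causes insulin release in response to amino acids. Car10 encodes a carbonic anhydrase-related protein that lacks catalytic activity and is known as a ligand of neurexins.

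In the mouse genome (GRCm38) Ucn3 (ENSMUSG00000044988) lies at chr13:3940688-3945349 on the minus strand and Prlr (ENSMUSG00000005268) at chr15:10177238-10349180 on the plus strand. Hadh (ENSMUSG00000027984) lies at chr3:131233419-131272101 on the minus strand and Car10 (ENSMUSG00000056158) at chr11:93098028-93601749 on the plus strand. All 4 are protein-coding genes, on different chromosomes. The promoters of Ucn3 and Hadh are shown because these genes had the larger differences from alpha in the groups below. Each is the 250 bases before the RefSeq start (GRCm38.p6, minus strand, 5′ to 3′), with TAAT on either strand, the core recognised by homeodomain factors such as Pdx1, in capitals. The Ucn3 window is chr13:3945350-3945599 and the Hadh window chr3:131272102-131272351.
Ucn3: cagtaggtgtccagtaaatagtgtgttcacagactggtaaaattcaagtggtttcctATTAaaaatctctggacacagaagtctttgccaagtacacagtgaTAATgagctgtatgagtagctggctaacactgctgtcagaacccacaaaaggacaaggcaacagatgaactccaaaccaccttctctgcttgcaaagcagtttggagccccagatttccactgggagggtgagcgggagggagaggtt
Hadh: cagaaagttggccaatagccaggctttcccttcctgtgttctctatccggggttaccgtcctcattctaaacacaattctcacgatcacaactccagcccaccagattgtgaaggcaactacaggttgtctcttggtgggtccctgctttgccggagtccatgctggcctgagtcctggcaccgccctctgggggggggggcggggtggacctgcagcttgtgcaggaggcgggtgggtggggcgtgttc

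The Ucn3 window held TAAT at 2 places, beginning 193 and 148 bases before the start, and the Hadh window held none. TAAT on either strand occurred in 54.8% of 32536 mouse promoter windows of the same length, so its presence does not set Ucn3 apart. Prlr has 3 RefSeq starts, of which the third had 6 matches to TAAT and the other two had 0. Car10 has 2 starts with 0 matches. Other motifs searched on both strands were TGCTGA (part of a Maf element, in 16.1% of windows), TTCNNNGAA (the STAT5 element, in 7.0%), CANNTG (an E-box, in 66.2%) and TATAAA (in 12.3%). The window of the second Prlr start held 1 TTCNNNGAA, 110 bases before the start, and each of the first and second Prlr starts and the second Car10 start held 1 TGCTGA. Hadh and the first Car10 start held none of the 5 motifs, and no window held TATAAA. GC content was 46.4% for Ucn3, 59.6% for Hadh, and 64.0% and 68.8% for the Car10 starts, against a median of 52.4% over all windows (quartiles 45.2% and 61.2%).

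Values are quantile-normalized log2 values, whose distribution is the same in every library: the quartiles are 5.95, 8.55 and 10.37 and the highest value is 22.57. They are not divided by gene length, so levels are compared between groups and not between genes. Read numbers are not in the table. Before the results, several libraries go against or stand apart from their labels. The library labelled alpha 8 had Pdx1 at 11.23 and Ins2 at 19.27, where the other 7 alpha libraries had Pdx1 between 3.66 and 5.61. The library labelled alpha Pdx1 DT 5 had Pdx1 at 5.51 against 11.53 to 12.59 in the other 5 of its group, and alpha Pdx1 5 had 8.61 against 10.78 to 11.83. Over genes, alpha Pdx1 DT 5 correlated with alpha 4 at 0.9935, the highest of 435 pairs of libraries although the labels place them in different genotypes. The libraries labelled beta 1 and beta 5 had the glucagon gene Gcg as their top value. Values given as "without the 5 libraries" leave out beta 1, beta 5, alpha 8 and library 5 of both Pdx1 groups. Numbers after group names only name a library.

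Beta-cells held each of the 4 genes far above every other library. In bulk libraries, fewer cells that express a gene and less RNA per cell cannot be told apart. The lowest beta library exceeded the highest of the 23 other libraries by 5.75 for Prlr, 5.11 for Ucn3, 2.98 for Car10 and 2.32 for Hadh on the log2 scale. The 2 beta libraries with Gcg on top were the lowest of the 7 for each gene. The other 5 beta libraries averaged higher than these 2 by 0.96 for Ucn3, 0.91 for Prlr, 0.76 for Hadh and 0.96 for Car10.

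**Figure D1:**
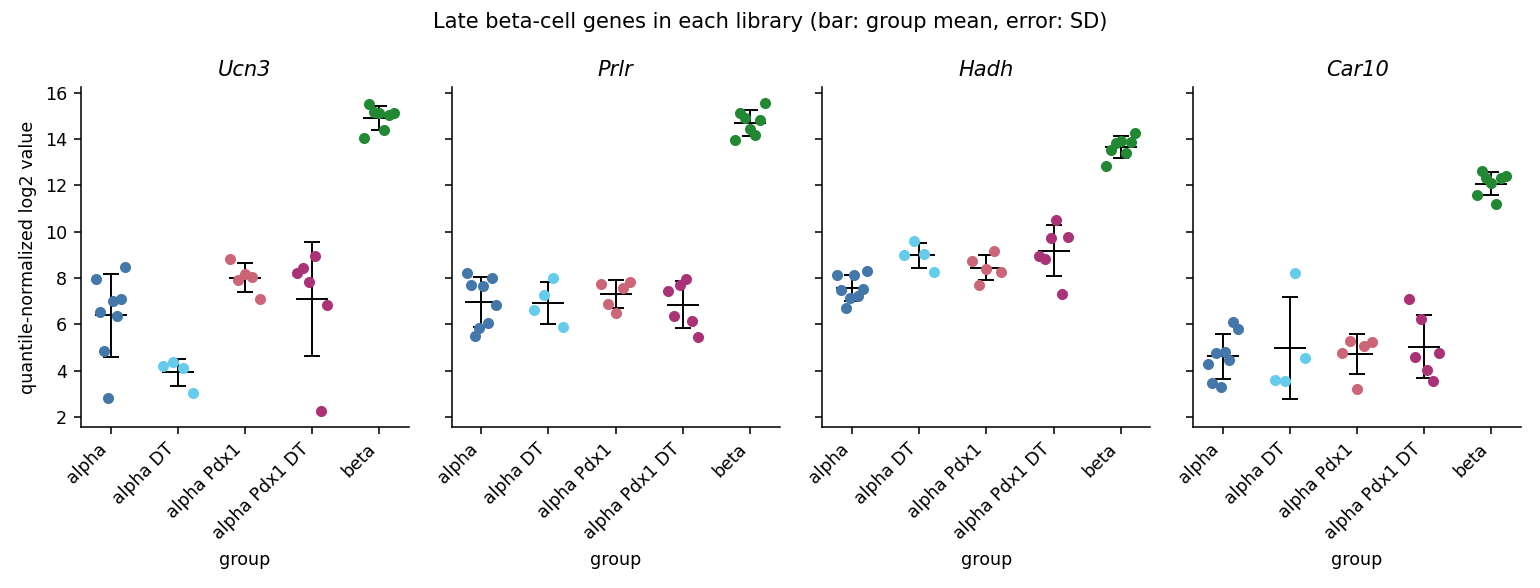
Quantile-normalized log2 value (vertical axis) of Ucn3, Prlr, Hadh and Car10 in each of the 30 libraries (points), by group (horizontal axis); bars mark group means and error bars the SD. All 7 beta libraries sit above all 23 others for each gene, and the low point of Ucn3 in alpha Pdx1 DT is library 5 at 2.25.

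Ucn3, the peptide gene, was 14.05, 15.49, 15.16, 15.11, 14.39, 15.02 and 15.11 in beta 1 to 7. In alpha it ran from 2.81 to 8.46 with a median of 6.77 over 8 libraries. The lowest was alpha 4, which resembles alpha Pdx1 DT 5, and the highest was alpha 8, whose Pdx1 was as high as in the Pdx1 groups. In alpha Pdx1 the values were 8.82, 7.92, 8.18, 8.04 and 7.09. The alpha Pdx1 DT values came close in 5 of 6 libraries. They were 8.23, 8.43, 7.82, 8.94, 2.25 and 6.83. The low value of 2.25 belongs to the library without raised Pdx1, and the other 5 averaged 8.05 (SD 0.79). In alpha DT the values were 4.18, 4.37, 4.10 and 3.05. All 4 lie below the common first quartile of 5.95, as do 2 of 8 alpha libraries, 0 of 5 alpha Pdx1, 1 of 6 alpha Pdx1 DT and 0 of 7 beta libraries.

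By group mean, Ucn3 fell in the order beta (14.91, SD 0.50), alpha Pdx1 (8.01, SD 0.62), alpha Pdx1 DT (7.08, SD 2.47), alpha (6.38, SD 1.81) and alpha DT (3.92, SD 0.60). From alpha Pdx1 down to alpha DT, each neighbouring pair overlapped in range, and only beta stood clear of every other group. Alpha DT (3.05 to 4.37) lay wholly below alpha Pdx1 (7.09 to 8.82). Its overlap with alpha came from alpha 4, and that with alpha Pdx1 DT from library 5 of that group. Beta exceeded alpha by 8.53 ± 0.76 (standard error). Alpha Pdx1 was above alpha by 1.63 ± 0.84, and alpha Pdx1 DT was above alpha DT by 3.16 ± 0.95. Measured along the log2 distance from alpha (0%) to beta (100%), the mean of alpha Pdx1 lay at 19.1% and that of alpha Pdx1 DT at 8.25%. Without the 5 libraries these became 23.7% and 21.6%, so the lower figure for the toxin group rests on alpha Pdx1 DT 5. Even the highest alpha Pdx1 library reached 28.6%. On the nominal linear scale beta exceeded alpha Pdx1 119-fold and alpha Pdx1 DT 226-fold, or 140-fold for the latter without the 5 libraries.

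Prlr, the prolactin receptor gene, was 13.97, 15.14, 14.89, 14.45, 14.15, 14.81 and 15.57 in the beta libraries. In alpha it ran from 5.48 to 8.22 with a median of 7.24 over 8 libraries. The other alpha-cell groups lay within this span, except for alpha Pdx1 DT 6 just below it. Alpha DT had 6.60, 7.25, 8.001 and 5.88, and alpha Pdx1 had 7.75, 6.85, 6.49, 7.57 and 7.83. Alpha Pdx1 DT had 7.44, 6.37, 7.71, 7.97, 6.14 and 5.45. The means of the 4 alpha-cell groups lay between 6.85 (SD 1.01, alpha Pdx1 DT) and 7.30 (SD 0.59, alpha Pdx1), closer together than the SD of any of them, with beta at 14.71 (SD 0.56). Beta exceeded alpha by 7.75 ± 0.42. Alpha Pdx1 was above alpha by 0.34 ± 0.46, and alpha Pdx1 DT differed from alpha DT by -0.09 ± 0.52. The alpha Pdx1 and alpha Pdx1 DT means lay at 4.33% and -1.53% of the distance from alpha to beta, and at 2.29% and 0.04% without the 5 libraries. The highest single library of either Pdx1 group reached 13.0%, alpha Pdx1 DT 4.

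Hadh, the mitochondrial dehydrogenase gene, was 12.83, 13.53, 13.81, 13.91, 13.41, 13.86 and 14.27 in beta. In alpha it ran from 6.70 to 8.32 with a median of 7.51 over 8 libraries, the highest again in alpha 8. Alpha DT had 9.01, 9.59, 9.03 and 8.27, and alpha Pdx1 had 8.74, 7.70, 8.38, 9.16 and 8.24. The alpha Pdx1 DT values were 8.95, 8.82, 9.71, 10.51, 7.33 and 9.75. The lowest of these is library 5, and the other 5 averaged 9.55 (SD 0.68). The order of means was beta (13.66, SD 0.46), alpha Pdx1 DT (9.18, SD 1.09), alpha DT (8.97, SD 0.54), alpha Pdx1 (8.45, SD 0.55) and alpha (7.58, SD 0.57). Each neighbouring pair below beta overlapped in range. Beta exceeded alpha by 6.08 ± 0.33, alpha Pdx1 was above alpha by 0.86 ± 0.36, and alpha Pdx1 DT was above alpha DT by 0.20 ± 0.41. Along the distance from alpha to beta, Hadh lay at 14.2% in alpha Pdx1, 22.9% in alpha DT and 26.3% in alpha Pdx1 DT, and at 15.95%, 23.4% and 32.4% without the 5 libraries. Alpha DT, which carries no Pdx1 transgene, thus sat above alpha Pdx1 in this measure.

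Car10, the neurexin ligand gene, was 11.57, 12.62, 12.30, 12.08, 11.20, 12.32 and 12.41 in beta. In alpha it ran from 3.31 to 6.08 with a median of 4.60 over 8 libraries. Alpha DT had 3.59, 3.56, 8.22 and 4.54, where the third library stood above every other library outside beta. Alpha Pdx1 had 4.75, 5.27, 3.22, 5.06 and 5.25, and alpha Pdx1 DT had 7.11, 4.57, 6.25, 4.02, 3.53 and 4.76. Below the common first quartile lay 7 of 8 alpha, 3 of 4 alpha DT, 5 of 5 alpha Pdx1 and 4 of 6 alpha Pdx1 DT libraries. Most Car10 values outside beta thus lie in the lower tail of the libraries. Group means of the alpha-cell groups ran from 4.61 (SD 0.98, alpha) to 5.04 (SD 1.37, alpha Pdx1 DT), less than any of their SDs apart, and beta averaged 12.07 (SD 0.51). Beta exceeded alpha by 7.46 ± 0.57, and alpha Pdx1 differed from alpha by 0.10 ± 0.63. Alpha Pdx1 DT differed from alpha DT by 0.06 ± 0.71. The means of alpha Pdx1 and alpha Pdx1 DT lay at 1.30% and 5.70% of the distance to beta, or 1.63% and 11.3% without the 5 libraries.

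Other genes of the mature beta-cell, a list of 24 written with earlier results of these data known, differed in how far they moved. In beta against alpha 19 of the 24 rose and 1 fell, where 34.5% of all genes tested passed the threshold of an adjusted p under 0.05 in limma (16.9% higher and 17.6% lower). In alpha Pdx1 against alpha 7 rose and 0 fell, where 4.33% of all genes passed (2.36% higher and 1.98% lower), and 10 rose without the 5 libraries. Pdx1 itself is on the list, and its rise was set by the transgene, which leaves 6 of the other 23. With the ribosomal RNA gene Rn18s-rs5 as a covariate 3 of the 24 rose. Among the 7 were Iapp, the islet amyloid polypeptide gene, and G6pc2, a glucose-6-phosphatase gene, which lay at 98.3% and 57.0% of the distance from alpha to beta. By medians Iapp lay at 89.4%. Its highest value was 19.27 in both alpha Pdx1 and beta, one of the top values that quantile normalization fixes. In alpha Pdx1 DT against alpha DT 6 rose, where 2.1% of all genes passed (1.78% higher and 0.319% lower), and 12 rose without the 5 libraries. Pdx1 is again 1 of the 6. A fit of only these 2 groups called 0 of the 24, and 0 of all 16633 genes, and library weights left 1 of the 24. Median log2 differences of the list were 0.60 and 0.84 in these comparisons, against 0.03 and -0.002 over all genes. Insulin genes lay well beyond the 4 genes, with Ins2 at 63.6% in alpha Pdx1 and 56.3% in alpha Pdx1 DT and Ins1 at 44.7% and 50.3%. Their beta level sits on top values that quantile normalization fixes. Without the 5 libraries Ins1 was 22.57 and Ins2 20.54 in beta, each with an SD of 0.0. Their positions are therefore not directly comparable with those of the 4 genes. Mafa, a factor of mature beta-cells, stayed near alpha in both Pdx1 groups, at -2.17% and 0.42%. Slc2a2, the glucose transporter gene, lay at -1.99% in alpha Pdx1 and 11.4% in alpha Pdx1 DT, or 17.2% in the latter without the 5 libraries.

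**Figure D2:**
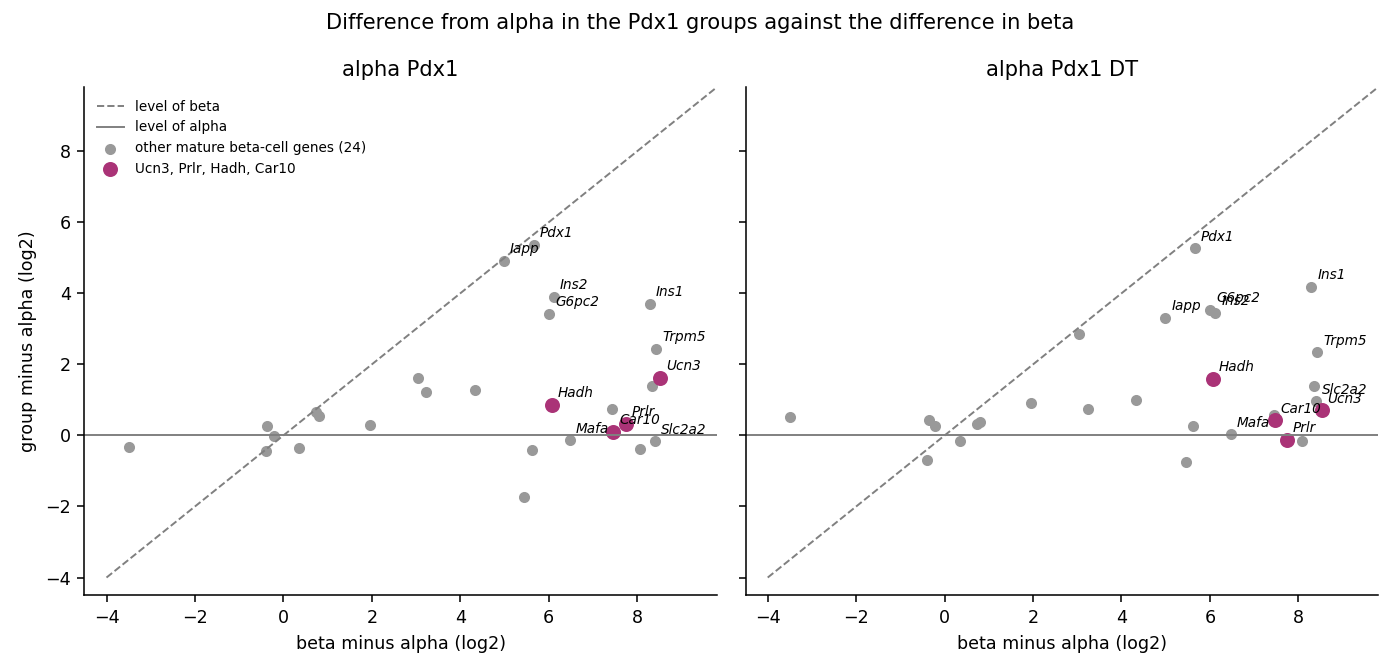
Difference of group means from alpha (vertical axis, log2) in alpha Pdx1 (left) and alpha Pdx1 DT (right) against the difference between beta and alpha (horizontal axis, log2), for Ucn3, Prlr, Hadh and Car10 (large points) and 24 other mature beta-cell genes (grey). The dashed line is the level of beta and the solid line that of alpha. All 4 genes lie closer to the solid line than to the dashed one. Ucn3 is 1.63 above alpha in alpha Pdx1, and Hadh is 1.60 above alpha in alpha Pdx1 DT. Among the grey points Mafa also lies near the solid line, while Iapp in alpha Pdx1 lies near the dashed one.

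Toxin treatment gave the comparisons that were tested, with the limit on their independence given above. In alpha DT (n = 4) against alpha (n = 8) Hadh rose and the other 3 did not pass, 1 of 4, where 3.26% of all 16633 genes tested passed (1.57% higher and 1.7% lower). Hadh was higher by 1.39 ± 0.39 (95% interval 0.61 to 2.18, limma adjusted p = 0.0401). An exact permutation test over libraries, two-sided, gave p = 0.0081, where 495 arrangements allow no less than 0.004. Of the 4 alpha DT libraries 3 lay above all alpha libraries, and 7 of 8 alpha libraries lay below all of alpha DT. The call was narrow. It was lost without alpha 2, alpha 3, alpha 4, alpha 6, alpha DT 1, alpha DT 2 or alpha DT 3 (adjusted p = 0.0644, 0.0706, 0.0672, 0.062, 0.0703, 0.135 and 0.0664), while without the 5 libraries the rise was 1.497 (adjusted p = 0.00947).

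Leukocyte markers moved with this result. The mean of 9 of 10 listed leukocyte genes in the table ran from 4.39 to 7.32 in alpha and from 7.51 to 11.46 in alpha DT, without overlap, and the log2 of their summed linear values from 8.46 to 11.87 and from 12.29 to 16.07. Of the 9, 5 rose, among them Fcer1g by 3.98 ± 0.79 (adjusted p = 0.00582) and Tyrobp by 4.90 ± 1.08 (adjusted p = 0.0118), and none was at the lowest value in every library. With that mean as a covariate, Hadh was higher by 1.10 ± 0.48 (adjusted p = 0.296). The means of alpha and alpha DT did not overlap. In this comparison, here and below, the leukocyte covariate therefore cannot separate its level from the group difference. Within alpha DT the library with the highest leukocyte mean, 11.46, had the lowest Hadh, and the next, at 9.71, had the highest. In alpha Pdx1 DT libraries 6 and 4, with the highest leukocyte means (10.47 and 9.49), had the highest Hadh (9.75 and 10.51). Library 5, without raised Pdx1, had the lowest mean (4.52) and the lowest Hadh (7.33). Library 3, with a mean of only 5.73, had Hadh at 9.71, close to library 6. Libraries 1 and 2, with means of 6.82 and 7.74, had Hadh at 8.95 and 8.82. The mean of 5 delta-cell genes ran from 8.98 to 10.63 in alpha and from 10.08 to 11.85 in alpha DT. That of 12 acinar-cell genes ran from 6.44 to 13.06 and from 7.81 to 14.23, and the log2 sum from 10.51 to 17.27 and from 12.34 to 18.25. The part of these 2 lists in the result was not tested.

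**Figure D3:**
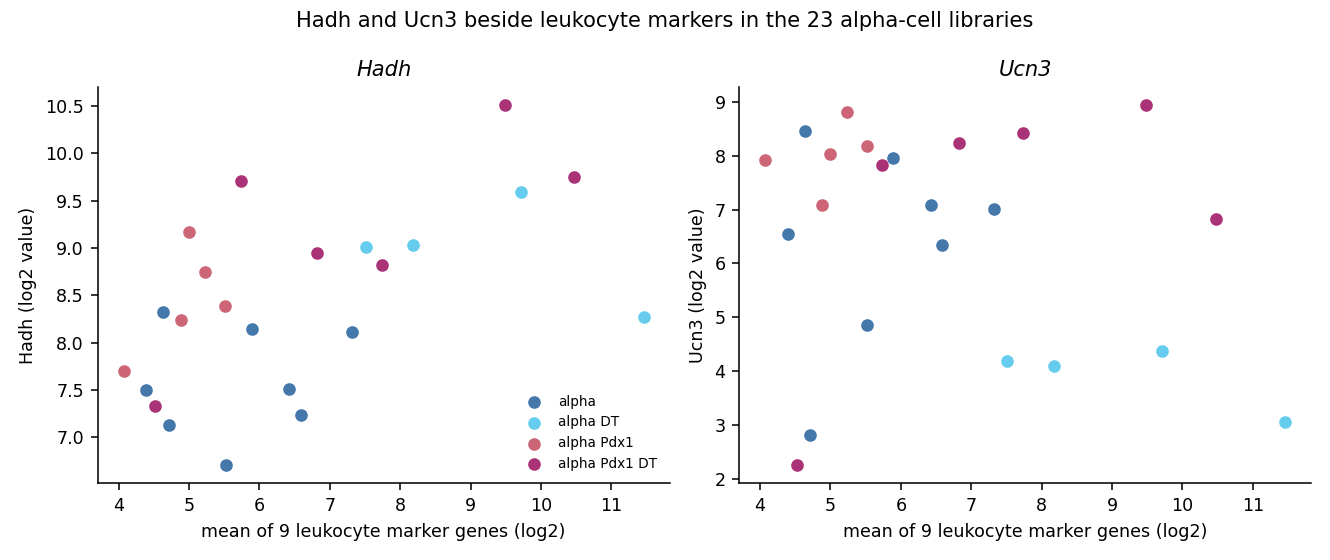
Log2 value of Hadh (left) and Ucn3 (right) against the mean log2 value of 9 leukocyte marker genes in the same library, for the 23 libraries of the 4 alpha-cell groups (colours). The 4 alpha DT libraries lie to the right of all alpha libraries; their Hadh is between 8.27 and 9.59 and their Ucn3 between 3.05 and 4.37.

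Ucn3 differed by -2.46 ± 0.90 between alpha DT and alpha (95% interval -4.30 to -0.61) and missed the threshold in the fit over all genes (limma adjusted p = 0.122). The exact permutation test of this gene alone, two-sided, gave p = 0.0323. The overlap of the groups came from alpha 4, at 2.81, and the other 7 alpha libraries, from 4.85 upward, lay above all 4 alpha DT libraries. Without alpha 4 the difference was -2.97 (adjusted p = 0.0487), and without the 5 libraries, which keeps alpha 4, it was -2.16 (adjusted p = 0.0423). The other mature beta-cell genes did not move with it: 0 of 24 passed in limma, 0 of 24 had an unadjusted p under 0.05, and the median difference was -0.005 against -0.062 over all genes. Without the 5 libraries 1 of the 24 rose, Iapp (adjusted p = 0.0434). Ins2, an insulin gene, differed by -0.45 ± 1.04 (adjusted p = 0.846).

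Prlr differed by -0.03 ± 0.49 between alpha DT and alpha, with a 95% interval from -1.04 to 0.97 (limma adjusted p = 0.98, exact permutation p = 0.9616). Car10 differed by 0.37 ± 0.67 (interval -1.01 to 1.74, limma adjusted p = 0.803, exact permutation p = 0.6465). Its sign rests on alpha DT 3, since without that library the difference was -0.72. Neither interval reaches the distance to beta, which is over 7 for both genes.

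In alpha Pdx1 DT (n = 6) against alpha Pdx1 (n = 5) 0 of the 4 genes passed in limma, at an unadjusted p under 0.05 or in the exact permutation test, where 9.22% of all genes tested passed (4.83% higher and 4.39% lower). Hadh differed by 0.73 ± 0.38 (95% interval -0.05 to 1.51, adjusted p = 0.214, exact permutation p = 0.2121). Library 5 of alpha Pdx1 DT decided this value, since without it the difference was 1.10 (adjusted p = 0.0227), the same direction as in alpha DT. Without the 5 libraries it was 1.05 (adjusted p = 0.052). The ribosomal RNA gene Rn18s-rs5 moved with these groups, from 16.90 to 18.27 in alpha Pdx1 and from 19.87 to 22.57 in alpha Pdx1 DT. With its level as a covariate, Hadh differed by 0.22 ± 0.65 (adjusted p = 0.998), and the number of all genes called fell from 1534 to 0. Rn18s-rs5 values did not overlap between these groups. In this comparison, here and below, the covariate therefore cannot separate its level from the group difference. The leukocyte mean ran from 4.07 to 5.51 in alpha Pdx1 and from 4.52 to 10.47 in alpha Pdx1 DT, the log2 sum from 8.10 to 9.86 and from 8.67 to 15.83, and with it as a covariate Hadh differed by 0.52 ± 0.43 (adjusted p = 0.561). Acinar-cell markers also stood higher, with a list mean from 4.08 to 11.04 in alpha Pdx1 and from 6.06 to 14.23 in alpha Pdx1 DT, and a log2 sum from 8.20 to 15.07 and from 9.90 to 18.50. Their median difference was 3.21 (4.69 without the 5 libraries), 0 of 12 passed in limma and 2 had an unadjusted p under 0.05. Without the 5 libraries 1 passed, Clps. None of the 12 was at the lowest value in every library, and their part in the result was not tested.

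Ucn3 differed by -0.93 ± 0.89 between alpha Pdx1 DT and alpha Pdx1 (95% interval -2.75 to 0.90, limma adjusted p = 0.532, exact permutation p = 0.5974). Without library 5 of alpha Pdx1 DT the difference was 0.04. Prlr differed by -0.45 ± 0.49 (interval -1.45 to 0.54, adjusted p = 0.58) and Car10 by 0.33 ± 0.67 (interval -1.03 to 1.68, adjusted p = 0.792). These 2 genes thus showed no difference beyond the spread with the toxin in either genotype. The toxin difference in Pdx1-expressing cells minus that in alpha was 1.53 ± 1.27 for Ucn3 (adjusted p = 0.732), -0.66 ± 0.54 for Hadh (adjusted p = 0.73), -0.42 ± 0.69 for Prlr (adjusted p = 0.879) and -0.04 ± 0.95 for Car10 (adjusted p = 0.995). In this contrast 0 of all 16633 genes tested passed. A difference between the genotypes was therefore not shown for any of the 4 genes. The choice of the genes on levels in alpha and both Pdx1 groups limits this contrast as well.

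**Figure D4:**
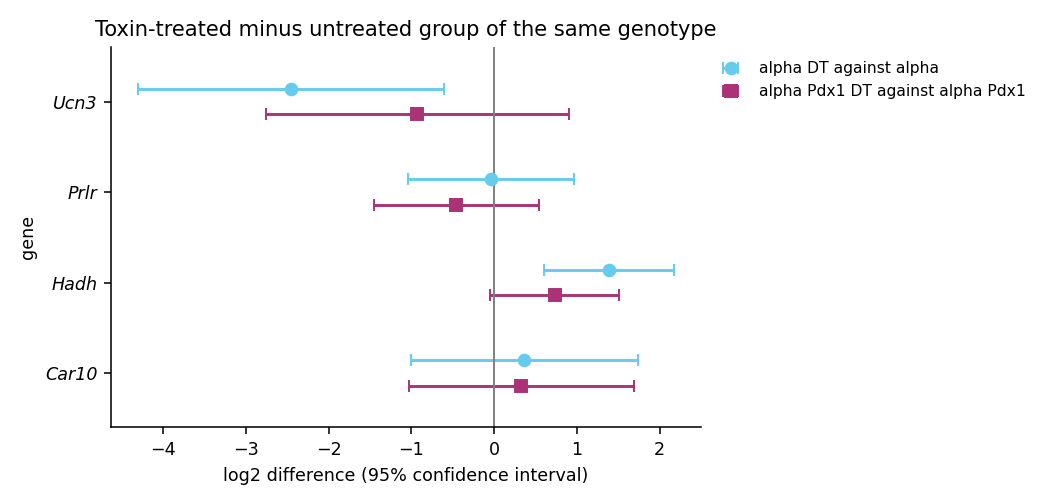
Log2 difference between toxin-treated and untreated cells (horizontal axis) with 95% confidence intervals (bars), for each gene (vertical axis) in alpha (circles) and alpha Pdx1 (squares). Hadh lies to the right of 0 in alpha, and Prlr and Car10 intervals span 0 in both genotypes.

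The partner genes of each of the 4 were followed in lists written from general knowledge. Of the urocortin and somatostatin axis 4 of 12 genes were in the table. In beta against alpha Sstr3, a somatostatin receptor gene, rose by 0.89 ± 0.21 and Sstr2 fell by 3.69 on the log2 scale. In alpha DT against alpha 0 of 4 passed in limma and 2 of 4 had an unadjusted p under 0.05, with Sst, the somatostatin gene, at 2.12 ± 0.94 (adjusted p = 0.204) and Sstr2 at -1.17 ± 0.55 (adjusted p = 0.231).

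Of 20 prolactin signalling genes 15 were in the table. In beta against alpha 4 rose and 1 fell, with Ghr, the growth hormone receptor gene, up by 2.05 ± 0.16, Stat5a up by 0.85 ± 0.24 and the feedback inhibitor gene Socs3 at -1.66 ± 0.40. In alpha Pdx1 against alpha 1 of 15 rose, Tph2, which makes serotonin, by 4.37 ± 0.98 (adjusted p = 0.00918), while Prlr itself was at 0.34. In alpha Pdx1 DT against alpha Pdx1 Tph2 fell, at -3.21 ± 1.04 (adjusted p = 0.0466, and 0.153 without the 5 libraries). With Rn18s-rs5 as a covariate 0 of the list passed in either comparison. Tph2 lay below the common first quartile in 8 of 8 alpha, 2 of 5 alpha Pdx1 and 5 of 6 alpha Pdx1 DT libraries. Differences are least certain there. In alpha DT against alpha 0 of 15 passed in limma and 1 had an unadjusted p under 0.05, the cyclin gene Ccnd2 (0.62 ± 0.23, adjusted p = 0.12).

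All 23 listed genes of mitochondrial fatty acid oxidation were in the table, and none of their differences between beta and alpha was as large as that of Hadh. In that comparison 5 rose and 3 fell, with Cpt1a, which admits fatty acids to the mitochondrion, at 0.91 ± 0.21, Hadha, of the long-chain enzyme complex, at 0.53 ± 0.13 and Cpt1c at -1.23 ± 0.21. Glud1, the glutamate dehydrogenase that HADH protein restrains, was at -0.55 ± 0.15. The median of the list was 0.16, against -0.002 over all genes, beside 6.08 for Hadh. In alpha Pdx1 against alpha Glud1 alone of the list fell, by 0.72 on the log2 scale (standard error 0.17, adjusted p = 0.0112). In alpha DT against alpha, where Hadh rose, 0 of 23 passed in limma and 3 had an unadjusted p under 0.05, with Eci1 at -0.97 ± 0.32 (adjusted p = 0.0882) and Etfdh at -0.57 ± 0.20 (adjusted p = 0.103). In alpha Pdx1 DT against alpha Pdx1 2 of 23 rose and 4 fell, among them Acads at 1.26 ± 0.40 and Etfdh at -0.77 ± 0.20, and 0 rose and 3 fell without the 5 libraries. With Rn18s-rs5 or the leukocyte mean as a covariate 0 of 23 passed.

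Of 21 carbonic anhydrase, neurexin and neuroligin genes 12 were in the table and 10 passed the filter. In beta against alpha 2 rose and 6 fell. Car15, a membrane-anchored carbonic anhydrase gene, rose by 3.21 ± 0.41 as Car10 was higher, while the neurexin genes Nrxn2 (-2.47 ± 0.33) and Nrxn3 (-2.08 ± 0.53), whose products CAR10 protein binds, fell. In alpha Pdx1 against alpha Car15 rose by 1.79 ± 0.45 (adjusted p = 0.0174) and Nrxn3 fell, at -2.14 ± 0.59 (adjusted p = 0.0298), the directions seen in beta, with Car10 at 0.10. With Rn18s-rs5 as a covariate neither passed. Nrxn3 also fell in alpha Pdx1 DT against alpha DT, at -2.99 ± 0.67 (adjusted p = 0.0147), but not in a fit of only these groups or with library weights. In alpha Pdx1 DT against alpha Pdx1 Car15 fell, at -1.76 ± 0.48 (adjusted p = 0.0213), and Nlgn2, a neuroligin gene, rose by 0.88 ± 0.21, and with Rn18s-rs5 or the leukocyte mean as a covariate neither passed. In alpha DT against alpha 0 of 10 passed in limma and 1 had an unadjusted p under 0.05.

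Across the 30 libraries each gene had close companions, described by Pearson's r, which is dominated by the split between beta and the rest that all of these genes share. Ucn3 was closest to Pbx3, a homeodomain factor gene (r = 0.965), Tmem215 (0.962) and Glp1r, the incretin receptor gene (0.961). Prlr was closest to Rasgrf1 (0.976), Slc2a2 (0.973) and Prss53 (0.971). Hadh was closest to the glucagon receptor gene Gcgr (0.966), Sh3pxd2a (0.960) and Gm281 (0.959), and Car10 to Mafa (0.952), Dcdc2a (0.951) and Fras1 (0.951). After subtracting group means, which removes that split, r with these companions was 0.756, 0.722 and 0.754 for Ucn3, 0.673, 0.769 and 0.434 for Prlr, 0.739, 0.617 and 0.560 for Hadh, and 0.418, 0.565 and 0.481 for Car10. Among the 4 genes themselves r within groups ran from 0.156 for Hadh and Car10 to 0.736 for Ucn3 and Hadh. Before group means were subtracted, these pairs had 0.904 and 0.892 over all 30 libraries. The values within groups also keep all 30 libraries, including those that go against or stand apart from their labels. Whether r within groups holds without those libraries was not tested.

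The 11 libraries of the Pdx1 groups differ in their Pdx1 level, which falls into a main cluster and 2 low libraries. Over all 11, r with Pdx1 was 0.905 for Ucn3, 0.631 for Hadh, 0.291 for Car10 and 0.155 for Prlr. Without alpha Pdx1 5 and alpha Pdx1 DT 5 it was 0.209, 0.239, -0.15 and -0.201 over 9 libraries. The relation of Ucn3 and Hadh to Pdx1 thus rests on those 2 libraries.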

How the data were processed

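The authors deposited one table, 17775 genes by 30 libraries, of log2 values after quantile normalization, per the file headers and its values. For most columns, whose headers are numbers, the log2 unit is read from the values, which share one distribution with the named columns. RNA was sorted-cell RNA extracted with a micro column kit, per the labels' protocols. GSNAP and GRCm38 are named per the submitters' processing notes, and versions, annotation and counting rule are not given in the sources used here. Quantile normalization fixes the top values of each library and hides changes in total RNA, and sequencing depth is unknown. All value columns matched a sample (0 did not). Of the gene names, 137 are numbers and 1 is repeated.

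A count test had been planned for raw counts and did not apply, so the route for log2 values was used. Genes at 5 or more in at least 4 libraries (16633) were fitted with limma 3.58.1 in R 4.3.3, with 1 mean per group over all 30 libraries, an intensity trend and robust variances. P-values are two-sided, adjusted by Benjamini-Hochberg over all genes within a contrast (threshold 0.05), and errors are standard errors unless marked SD. Single genes were also compared by exact permutation over libraries with scipy 1.17.1 (Python 3.11.15). The fit was tested on simulated data.

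The genes, the lists and the libraries left out were chosen with earlier results of these data known. Named genes are the 4 genes, label checks (Pdx1, Ins1, Ins2, Gcg, Ttr), the 3 genes most like each by Pearson's r, and per list and contrast up to 2 that rose and 2 that fell with the smallest adjusted p, or the 2 with the smallest p. Iapp in alpha DT, Mafa, Slc2a2, Stat5a, Cpt1a, Hadha, Glud1, Rn18s-rs5 and the 2 leukocyte genes were named beside these where they bear on a gene described. Alternatives covered filters, an offset, variance settings, library weights, a median shift, fits of 2 groups, covariates and libraries left out. Promoter sequences are from RefSeq (GRCm38.p6), in which all 4 genes matched.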

Additional observations from a re-analysis of the deposited data

Results flagged for a closer look

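Each of the 4 genes was examined in each of the 5 groups for a library far from the rest (20 groups), and 2 stood out, where chance flags about 1 in 20. Ucn3 in the library labelled alpha Pdx1 DT 5 was 2.25, the lowest of 6, and its gap to the next library took a share of 0.685 of the range, above the critical 0.625. Car10 in the library labelled alpha Pdx1 3 was 3.22, the lowest of 5, with a share of 0.746 against a critical 0.71. The first of these libraries also lacked raised Pdx1, as given above. The second had Pdx1 at 11.83, the highest of its group.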

How the results depend on the processing

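No paired analysis was possible because the labels give libraries identity numbers and no replicate numbers shared between groups. No result for the 4 genes past its threshold changed sign under any alternative run. Hadh in alpha DT against alpha passed in 12 of 24 alternatives. It was lost without the variance trend and robust variances (1.39, adjusted p = 0.0571), with library weights (1.76, adjusted p = 0.0524), in a fit of these 2 groups (1.39, adjusted p = 0.0884), and with Rn18s-rs5 (1.29, adjusted p = 0.0867) or the leukocyte mean (1.10, adjusted p = 0.296) as a covariate. Leaving out 1 library gave 1.19 to 1.63. Ucn3 in alpha DT against alpha passed in 4 of 24, namely without the 5 libraries (-2.16), without alpha 4 and alpha Pdx1 DT 5 (-2.97, adjusted p = 0.000588), without alpha 4, and in the exact permutation test (-2.46). It ran from -2.97 to -2.16 without 1 library and was -1.47 with an offset of 32 before the log. The permutation test is among the 24 for both genes and was judged at its unadjusted p. The limma alternatives were judged at the adjusted p. In the main limma fit the unadjusted p of Ucn3 was 0.0111. Hadh in alpha Pdx1 DT against alpha Pdx1 passed without alpha 4 and alpha Pdx1 DT 5 (1.10, adjusted p = 0.0242) and ran from 0.47 to 1.10 without 1 library. Without 1 library, Ucn3 in that comparison ran from -1.30 to 0.04, Prlr from -0.68 to -0.17 and Car10 from -0.09 to 0.63, and in alpha DT against alpha Prlr ran from -0.39 to 0.32 and Car10 from -0.72 to 0.84.

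Counts of all genes called moved more. As reported they were 5734 (beta against alpha), 543 (alpha DT against alpha), 721 (alpha Pdx1 against alpha), 349 (alpha Pdx1 DT against alpha DT) and 1534 (alpha Pdx1 DT against alpha Pdx1). With library weights they were, in that order, 9375, 208, 3110, 32 and 3769. Fits of only the groups compared gave 66 for alpha DT against alpha, 0 for alpha Pdx1 DT against alpha DT and 904 for alpha Pdx1 DT against alpha Pdx1, where the leukocyte covariate gave 65, 727 and 57. The Rn18s-rs5 covariate gave 295, 114, 190 and 0 for the comparisons after beta against alpha. Without the 5 libraries, alpha Pdx1 against alpha gave 1099 and alpha Pdx1 DT against alpha DT 953. Without alpha 4 and alpha Pdx1 DT 5, alpha Pdx1 DT gave 860 against alpha DT and 2422 against alpha Pdx1. Without 1 library the counts ran from 5103 to 5933, 306 to 1078, 301 to 985, 138 to 930 and 563 to 2558, in the order first given. Libraries that moved a count over 1.5 times were alpha 2, alpha 4, alpha DT 2 and alpha DT 4 (alpha DT against alpha), alpha 3 and alpha Pdx1 2, 3 and 4 (alpha Pdx1 against alpha), alpha DT 3 and 4 and alpha Pdx1 DT 1, 2, 4, 5 and 6 (alpha Pdx1 DT against alpha DT), and alpha Pdx1 2, 3, 4 and 5 and alpha Pdx1 DT 1, 4, 5 and 6 (alpha Pdx1 DT against alpha Pdx1). The cause was not tested. Depth is unknown, and Ucn3 in alpha DT and most Car10 values outside beta lie below the common first quartile, where differences are least certain.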

Other observations

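Npy, a neuropeptide gene of immature beta-cells, rose in alpha DT against alpha by 4.51 ± 0.88 (limma adjusted p = 0.00522) and in alpha Pdx1 DT against alpha Pdx1 by 3.86 ± 0.87 (adjusted p = 0.00833). The first call was lost in a fit of only those 2 groups and the second with Rn18s-rs5 as a covariate, where 0 of all genes passed. Npy lay below the common first quartile in 7 of 8 alpha and 5 of 5 alpha Pdx1 libraries, where differences are least certain. In alpha DT 1 of 4 and in alpha Pdx1 DT 1 of 6 libraries lay there. Leukocyte markers rose beside Npy, 5 of 9 in the first comparison and 2 of 9 in the second. With the leukocyte mean as a covariate 1 of the 12 genes of the list still passed in each comparison. Npy was the only one of 12 measured immature and disallowed beta-cell genes to pass in either comparison. In beta against alpha it was also higher, by 5.54 ± 0.74, as was Neurog3, the endocrine progenitor factor gene (2.94 ± 0.61), while Oat (-3.04 ± 0.33) and Hk1 (-2.58 ± 0.31) fell. In alpha Pdx1 against alpha and in alpha Pdx1 DT against alpha DT Npy was at -0.86 ± 0.82 and -1.52 ± 0.92 (adjusted p = 0.647 and 0.42).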
